A study of Mus musculus with 8 samples.

Results

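Arl4c, a small GTPase of the plasma membrane, was described together with its paralogs Arl4a and Arl4d, with the GTPase Arf6 and with the cytohesins Cyth1, Cyth2, Cyth3 and Cyth4, in naive mouse CD8+ T cells exposed to RGX-104, which activates the liver X receptors (LXR). These 8 genes were taken by symbol from the 41730 gene rows of the table. Arl4c was chosen by its adjusted p in the contrast of RGX-104 with DMSO, and the other genes were added for their kinship with it or their place beside it, so its difference between the groups is given as a description and not as a finding. All 8 genes have a row. Of these, 7 passed the filter on low counts and were tested, and Arl4d had no count in any library.

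The cells were isolated with a magnetic kit for naive CD8+ T cells of the mouse and cultured for 24 h, either with 2 µM RGX-104, a synthetic LXR agonist, or with its solvent DMSO as the control. Each group held 4 libraries, RGX-104 replicates 5 to 8 and DMSO replicates 1 to 4. Strain, age and genotype of the animals are not stated in the labels, nor whether the replicates are different mice or cultures, so the errors below measure the spread between libraries, which may be technical. In bulk RNA a lower level can come from fewer cells that make a transcript or from less RNA per cell, and these cannot be told apart.

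Small GTPases of the ARF family act as switches on membranes. They are active when loaded with GTP by an exchange factor and are turned off by GTPase-activating proteins. Arl4 proteins sit at the plasma membrane, where their active form binds the pleckstrin homology domain of cytohesins and brings these exchange factors to the membrane. Cytohesins in turn load Arf6, which drives endosomal recycling and remodelling of cortical actin. In lymphocytes cytohesin 1 is known as a partner of the β2 integrin tail and a regulator of adhesion.

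On GRCm38.p6 the genes lie apart from each other. Arl4c spans chromosome 1, 88698225 to 88702191, on the minus strand. Arl4a spans chromosome 12, 40033291 to 40037987 (minus), Arl4d chromosome 11, 101665541 to 101667832 (plus), and Arf6 chromosome 12, 69372150 to 69375980 (plus). The longest coding sequence annotated for each of these 4 GTPases lies in 1 exon, with 192 codons for Arl4c, 200 for Arl4a, 201 for Arl4d and 175 for Arf6. The cytohesin genes are longer and their longest coding sequences have 12 to 14 exons. Cyth1 spans chromosome 11, 118164170 to 118248616 (minus), Cyth2 chromosome 7, 45806637 to 45814322 (minus), Cyth3 chromosome 5, 143622447 to 143710250 (plus), and Cyth4 chromosome 15, 78597047 to 78622019 (plus). GENCODE annotates protein-coding transcripts of Arl4c with 2 different 3' ends and those of Arl4a with 2. Those of Cyth1 and Cyth4 have 4 each, and those of Cyth2 and Cyth3 have 5 each. The counts per gene do not separate these ends.

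The promoters of the 3 Arl4 genes are shown because these close paralogs stood at very different levels in the same libraries. Each sequence is the RefSeq window of 250 bases before to 50 bases after a transcription start on GRCm38.p6, written 5′ to 3′ on the strand of the gene, and capitals mark GGTCA or its reverse complement TGACC, the inner letters of the half-site AGGTCA that nuclear receptors of the LXR class bind. The windows are chr1:88702142-88702441 (minus) for Arl4c, chr12:40037938-40038237 (minus) for Arl4a at the more upstream of its 2 listed starts, and chr11:101665291-101665590 (plus) for Arl4d.
Arl4c: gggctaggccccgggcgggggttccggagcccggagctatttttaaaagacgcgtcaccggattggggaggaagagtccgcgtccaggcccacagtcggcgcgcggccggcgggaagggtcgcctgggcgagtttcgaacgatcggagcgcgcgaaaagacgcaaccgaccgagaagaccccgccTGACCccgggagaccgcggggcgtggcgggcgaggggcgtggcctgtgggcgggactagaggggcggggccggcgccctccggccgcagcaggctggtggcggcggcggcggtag
Arl4a: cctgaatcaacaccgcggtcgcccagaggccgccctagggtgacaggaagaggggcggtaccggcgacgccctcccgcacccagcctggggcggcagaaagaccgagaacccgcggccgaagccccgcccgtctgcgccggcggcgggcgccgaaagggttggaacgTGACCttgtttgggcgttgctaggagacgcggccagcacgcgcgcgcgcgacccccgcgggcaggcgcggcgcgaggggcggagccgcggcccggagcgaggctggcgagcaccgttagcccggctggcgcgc
Arl4d: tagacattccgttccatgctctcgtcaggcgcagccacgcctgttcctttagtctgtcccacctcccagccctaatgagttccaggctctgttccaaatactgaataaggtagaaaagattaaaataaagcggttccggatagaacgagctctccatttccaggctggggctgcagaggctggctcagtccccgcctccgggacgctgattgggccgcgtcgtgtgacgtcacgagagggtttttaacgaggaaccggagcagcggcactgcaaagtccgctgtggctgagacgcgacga
The Arl4c and Arl4a windows held 1 GGTCA each, on the reverse strand, and the Arl4d window held 0. The match of Arl4a extends to the full AGGTCA and that of Arl4c does not. On both strands GGTCA was present in 40.5% of all 32851 promoter windows and AGGTCA, which contains it, in 16.3%. The paired motif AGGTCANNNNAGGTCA, an exact direct repeat with a gap of 4 letters that LXR dimers prefer, was found in 0.0152% of windows and in 0 of the Arl4 windows. Among classical LXR targets, the Abca1 window held 1 GGTCA, the Mylip window 0, and 1 of the 3 Srebf1 windows held 1, each with 0 exact direct repeats. No window of Abcg1, a further target used below, was examined. GC content was 74.0% for Arl4c, 76.0% for Arl4a and 56.3% for Arl4d. GGGCGG, the core of the GC box, was found 3 times for Arl4c, 5 times for Arl4a and 0 times for Arl4d, against 35.7% of all windows with at least 1. These are matches of letters and not measured binding.

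The libraries held 16196217 to 28287445 counts in RGX-104 and 16308726 to 24353797 in DMSO. Genes with at least 1 count numbered 10442 to 10990 in RGX-104 and 9772 to 10908 in DMSO, and DMSO replicates 1, 2 and 3 had the fewest. The frequency of zeros among low genes corresponded to only 250375 to 344257 apparent molecules per library in RGX-104 and 182352 to 316834 in DMSO. By that estimate 1 molecule corresponds to 2.90 to 5.48 CPM (counts scaled to the normalised library total), which sets the precision of low genes. Markers of the labelled cell type were all detected. The summed level of 9 CD8 T cell markers was 2879 to 3296 CPM in RGX-104 and 2925 to 3284 CPM in DMSO, and that of 5 naive T cell markers was 2463 to 2983 CPM in RGX-104 and 2776 to 2998 CPM in DMSO. B cell markers summed to 97.2 to 134 CPM in RGX-104 and 35.7 to 173 CPM in DMSO, and those of CD4 cells with regulatory T cells, of myeloid cells and of natural killer cells to at most 48.2 CPM in any library. None of these markers was called by edgeR, beside 0.11% of all 10037 genes tested. Of the 7 myeloid markers 6 were detected, and of the 5 natural killer markers 4. The exceptions, Fcgr3 and Ncr1, had no count in any library, which was not shown to mean that they were absent.

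Arl4c had the highest measured level of the 8 genes and was the only one called. It stood at 1039.8, 1132, 1099 and 1009 CPM in the RGX-104 libraries (replicates 5 to 8), against 621, 664, 742 and 641 CPM in the DMSO libraries (replicates 1 to 4). Every RGX-104 library lay above every DMSO library, with a gap between 742 and 1009 CPM that was wider than the range of either group. The means were 1069.8 ± 55.7 CPM in RGX-104 and 667 ± 53.1 CPM in DMSO (SD, n = 4 each), and the log2 fold change was 0.68 ± 0.10 (SE), or 1.60-fold. By the molecule estimate the libraries held 260.3 to 347 apparent molecules of Arl4c in RGX-104 and 121 to 203 in DMSO. These numbers are not scaled to the apparent molecules of all genes, at 250375 to 344257 per library in RGX-104 and 182352 to 316834 in DMSO. They show how many molecules each value rests on and are no second measure of the fold change. Arl4c is 1 of 7 tested members past an adjusted p of 0.05 in edgeR, where 0.11% of all 10037 genes tested passed in either direction, 0.0996% higher and 0.00996% lower in RGX-104. It is also 1 of 7 whose groups did not overlap, with RGX-104 above DMSO, beside 3.58% of all genes tested without overlap in either direction, 2.08% with RGX-104 above and 1.49% with RGX-104 below. Since Arl4c was chosen for this contrast, nothing is read from these counts. The fold change stayed between 0.65 and 0.73 when any library was left out. With detected genes as a covariate it was 0.70, and the adjusted p was 0.110 (edgeR). Against DMSO replicate 4 alone, the control library with most genes detected, it was 0.75 with an adjusted p of 0.0698; there the spread came from the RGX-104 libraries and the lone control was assumed to vary like them.

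**Figure D1:**
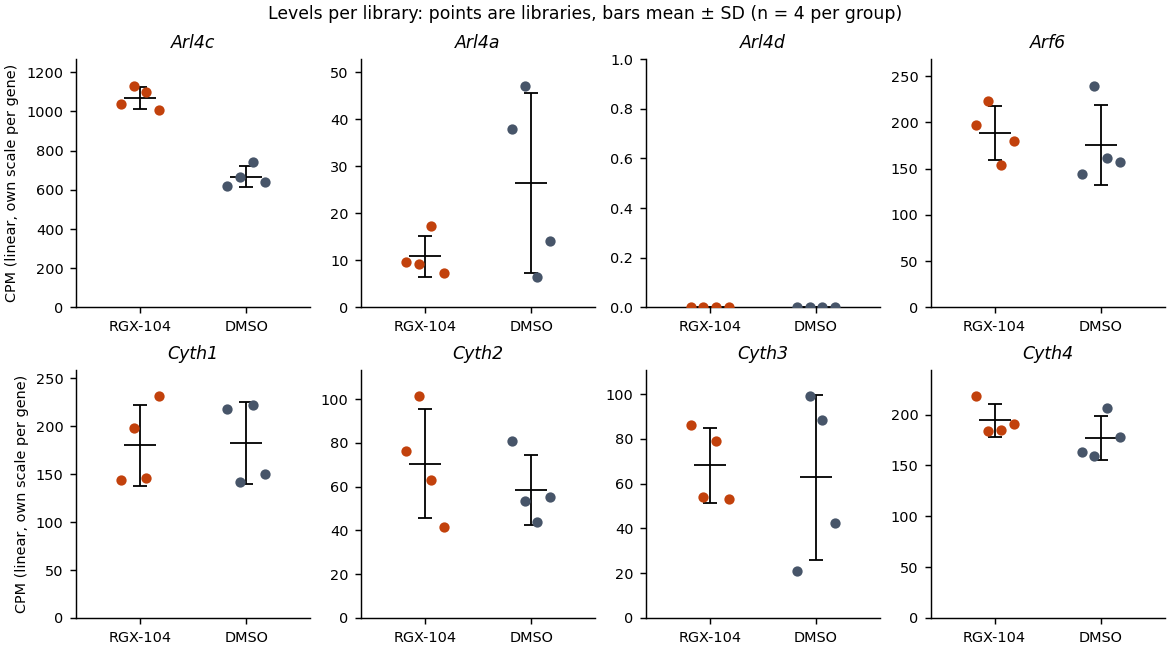
Level of each of the 8 genes in CPM (vertical axis, linear, with its own scale for each gene) in RGX-104 and DMSO libraries; points are libraries and bars show mean ± SD (n = 4 per group). Arl4c lies at 1009 to 1132 CPM in RGX-104 and 621 to 742 CPM in DMSO without overlap, Arl4d is at 0 in all 8 libraries, and the groups overlap for the other 6 genes.

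The close paralog Arl4a, known from other cells as a partner of ELMO proteins in actin remodelling, was measured far below Arl4c. It stood at 9.75, 9.22, 17.3 and 7.21 CPM in RGX-104 replicates 5 to 8, against 38.0, 47.2, 6.56 and 14.1 CPM in DMSO replicates 1 to 4. DMSO replicates 1 and 2 were high, while DMSO replicates 3 and 4 lay within the range of the RGX-104 libraries or just below it, so the groups overlapped. The log2 fold change was -1.28 ± 0.69 (SE, 95% interval -2.73 to 0.16) and did not pass (edgeR adjusted p = 1.00). In apparent molecules the gene was represented by 2.44 to 5.42 per library in RGX-104 and 1.39 to 8.60 in DMSO, so each value rests on very few molecules. The log2 fold change was -0.37 against DMSO replicate 4 alone, -0.44 with detected genes as a covariate and -0.86 without DMSO replicate 2.

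Arl4d had 0 counts in each of the 4 RGX-104 and the 4 DMSO libraries. For 3 counts over a group this allows at most 0.0361 CPM in RGX-104 and 0.0383 CPM in DMSO, and for 3 apparent molecules over a group 2.50 CPM in RGX-104 and 3.29 CPM in DMSO. These limits cover counting error only and hold if reads of the gene were counted to its row. Arf4, a GTPase of nearly all cells, named after its values were seen, also had 0 counts in all 8 libraries, so a 0 in this table was not shown to mean that a transcript was low or absent. Of the counts of the 3 Arl4 genes together, Arl4c held 98.5% to 99.3% in the RGX-104 libraries and 93.4% to 99.1% in the DMSO libraries. The lowest shares were those of DMSO replicates 1 and 2, at 94.2% (95% exact binomial interval 93.8% to 94.6%) and 93.4% (92.9% to 93.8%), where Arl4a was high. These intervals cover the counting error of reads only. Arl4a rested on 7.62 and 8.60 apparent molecules in DMSO replicates 1 and 2, so the intervals are too narrow for molecules.

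Arf6, the GTPase that cytohesins load at the plasma membrane, stood at 197, 223, 154 and 180.2 CPM in RGX-104 replicates 5 to 8, against 144, 239.6, 161 and 158 CPM in DMSO replicates 1 to 4. DMSO replicate 2 was the highest of all 8 libraries and the groups overlapped across most of their range. The means were 188 ± 29.0 and 176 ± 43.3 CPM (SD, n = 4 each). The log2 fold change was 0.10 ± 0.19 (SE, 95% interval -0.29 to 0.50, edgeR adjusted p = 1.00), an interval that holds no change and also changes of up to 1.41-fold. Leaving out single libraries gave 0.0057 (without RGX-104 replicate 6) to 0.28 (without DMSO replicate 2), and the covariate gave 0.30. Within a library the CPM of Arl4c was 5.07 to 7.14 times that of Arf6 in RGX-104 and 2.77 to 4.60 times in DMSO. These ranges again did not overlap, and the numerator of the ratio is the gene chosen for its difference.

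The cytohesins, which are the exchange factors that Arl4 proteins recruit, were all detected in every library, and none passed the test. Cyth4, the member of the family known mainly from blood cells, stood at 218, 184, 185 and 190.5 CPM in RGX-104 replicates 5 to 8, against 163, 159, 207 and 178 CPM in DMSO replicates 1 to 4. Of these, DMSO replicate 3 lay above 3 of the RGX-104 libraries. Its log2 fold change was 0.14 ± 0.16 (SE, 95% interval -0.20 to 0.47), and 0.072 (without RGX-104 replicate 5) to 0.22 (without DMSO replicate 3) when single libraries were left out. Cyth4 varied least among the cytohesins, with a coefficient of variation of 8.26% in RGX-104 and 12.2% in DMSO.

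Cyth1, the integrin-binding cytohesin, stood at 144, 198, 146 and 231 CPM in RGX-104 replicates 5 to 8, against 218, 142, 222 and 150.2 CPM in DMSO replicates 1 to 4. Each group held 2 low libraries, at 142 to 150.2 CPM, and 2 high ones, at 198 to 231 CPM, and the group means of 180.1 ± 42.4 and 183 ± 42.9 CPM almost coincided. The log2 fold change was -0.02 ± 0.20 (SE, 95% interval -0.45 to 0.40).

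Cyth2, also named ARNO, stood at 76.2, 101, 63.1 and 41.7 CPM in RGX-104 replicates 5 to 8, against 81.0, 53.6, 44.0 and 55.4 CPM in DMSO replicates 1 to 4, and the lowest and the highest value were both from RGX-104 libraries. Its log2 fold change was 0.27 ± 0.31 (SE, 95% interval -0.38 to 0.92), and 0.039 (without RGX-104 replicate 6) to 0.47 (without DMSO replicate 1) when single libraries were left out. Cyth3, also named Grp1 and known for its binding of the lipid PIP3, stood at 86.2, 54.1, 79.0 and 53.4 CPM in RGX-104, against 21.2, 99.1, 88.4 and 42.5 CPM in DMSO. The DMSO libraries alone spanned the whole range of the gene. Its log2 fold change was 0.12 ± 0.38 (SE, 95% interval -0.68 to 0.92), against 0.58 with the covariate and 0.69 against DMSO replicate 4 alone, neither past the test. For all 4 cytohesins the edgeR adjusted p was 1.00, but a missed threshold is not evidence of equal levels: an increase by the size of that of Arl4c lies inside the intervals of Cyth2 and Cyth3 and outside those of Cyth1 and Cyth4. The direction of Cyth1 and Cyth3 turned when single libraries were left out, with Cyth1 between -0.17 and 0.079 (turned without DMSO replicates 1 or 3 or RGX-104 replicates 5 or 7) and Cyth3 between -0.17 and 0.42 (turned without DMSO replicates 1 or 4 or RGX-104 replicate 5). Cyth1 also turned against DMSO replicate 4 alone, at 0.27.

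Summed over the 4 genes, cytohesin transcripts stood at 513 ± 27.8 CPM in RGX-104 and 481 ± 58.3 CPM in DMSO (SD, n = 4 each), with ranges of 474 to 538 and 426 to 561 CPM. Cyth4 gave 37.9% ± 3.14 of the sum in RGX-104 and 36.9% ± 3.50 in DMSO, and Cyth1 gave 35.02% ± 7.57 and 37.8% ± 5.92. Cyth2 gave 13.7% ± 4.44 and 12.4% ± 3.67, and Cyth3 gave 13.4% ± 3.68 and 13.0% ± 7.51. The CPM of Arl4c alone was 1.95 to 2.32 times this sum in RGX-104 and 1.28 to 1.51 times in DMSO.

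**Figure D2:**
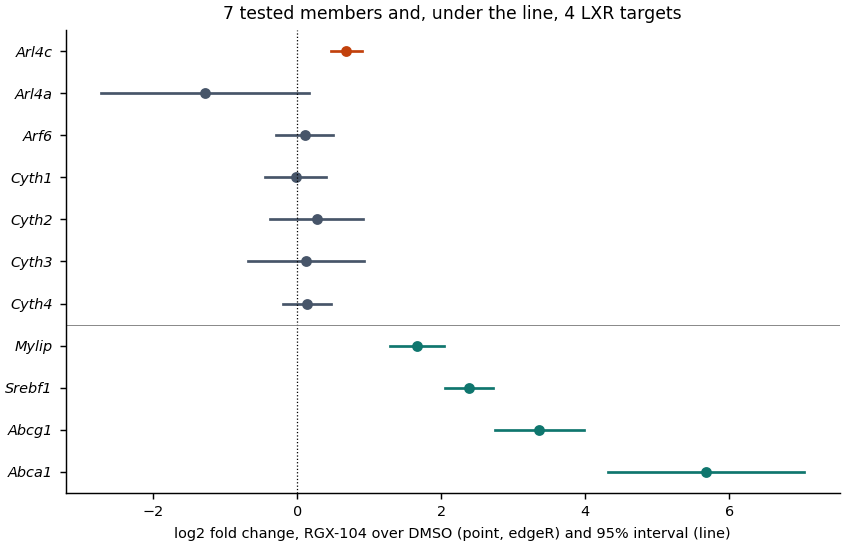
log2 fold change of RGX-104 over DMSO (horizontal axis) with its 95% interval from edgeR (lines) for the 7 tested members and, under the grey line, 4 LXR targets; the dotted line marks no change. Arl4c lies at 0.68, the interval of each of the other 6 members includes 0, that of Arl4a is the widest of the 7, and the LXR targets lie between 1.66 and 5.68.

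The order of the levels was not used to choose the genes, although Arl4c was chosen by its adjusted p in these libraries. Which genes are neighbours was read from the same 8 libraries in which they were compared. The p-values below therefore do not test an order fixed in advance. Each 3' read stands for a transcript end whatever the gene's length, so CPM was compared between genes within a library. How fully the reads of each gene were captured and counted to its row was not measured and may differ between genes. The differences below are therefore differences in measured level. By mean CPM over all 8 libraries Arl4c (868) came first, followed by Cyth4 (186), Arf6 (182.1), Cyth1 (181.5), Cyth3 (65.5), Cyth2 (64.5), Arl4a (18.7) and Arl4d (0). Neighbours in this order were compared on log2(CPM + 1) by a two-sided exact sign-flip permutation test over the 8 libraries, both groups together. Benjamini-Hochberg adjustment was over 7 pairs, and the smallest unadjusted p that 8 libraries allow is 0.00781. These p-values measure agreement between libraries, which may be technical. A bias in the measurement of a gene that all libraries share would not reduce that agreement. Arl4c exceeded Cyth4 by 2.19 ± 0.32 on the log2 scale (SD over libraries, higher in 8 of 8, exact adjusted p = 0.0137). The same adjusted p was found for Cyth1 over Cyth3 (1.56 ± 0.91) and Cyth2 over Arl4a (2.01 ± 1.01), each in 8 of 8 libraries. Arl4a over Arl4d is no test, since Arl4d was at 0 in every library and the outcome was fixed; adjusted over the other 6 pairs, a setting added after the data were seen, the exact adjusted p of these 3 differences was 0.0156. Differences between Cyth4 and Arf6 (0.042 ± 0.32, higher in 6 of 8), between Arf6 and Cyth1 (0.012 ± 0.46, 5 of 8) and between Cyth3 and Cyth2 (-0.055 ± 0.96, 5 of 8) were smaller than the spread between libraries (exact adjusted p = 0.938 each). For Cyth3 and Cyth2 the order by mean CPM and the sign of the mean log2 difference did not match. Steps in measured level past the test thus lay below Arl4c, below the trio of Cyth4, Arf6 and Cyth1, and below the pair of Cyth3 and Cyth2. Ranges of Cyth2 and Arl4a overlapped in DMSO, where Cyth2 had 44.0 CPM at its lowest and Arl4a 47.2 CPM at its highest, in different libraries.

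Arl4c was set beside 4 established LXR targets in the same libraries: Abca1 and Abcg1, exporters of cholesterol, Srebf1, a transcription factor of fatty acid synthesis, and Mylip, a ubiquitin ligase that degrades the LDL receptor. Their fold changes from edgeR were 51.3 for Abca1, 10.3 for Abcg1, 5.23 for Srebf1 and 3.17 for Mylip, all larger than the 1.60 of Arl4c. In DMSO, however, Arl4c already stood at 62.4% of its mean level in RGX-104, against 31.5% for Mylip, 19.1% for Srebf1, 9.72% for Abcg1 and 1.93% for Abca1. As a difference in level, RGX-104 minus DMSO, Arl4c gained 403 ± 38.5 CPM (SE, n = 4 per group). This lay near the gains of Srebf1 (386 ± 40.1 CPM) and Abca1 (337 ± 17.5 CPM), above that of Mylip (173 ± 12.6 CPM) and below that of Abcg1 (694 ± 35.5 CPM). These values share their libraries and their contrast and were not tested against each other.

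**Figure D3:**
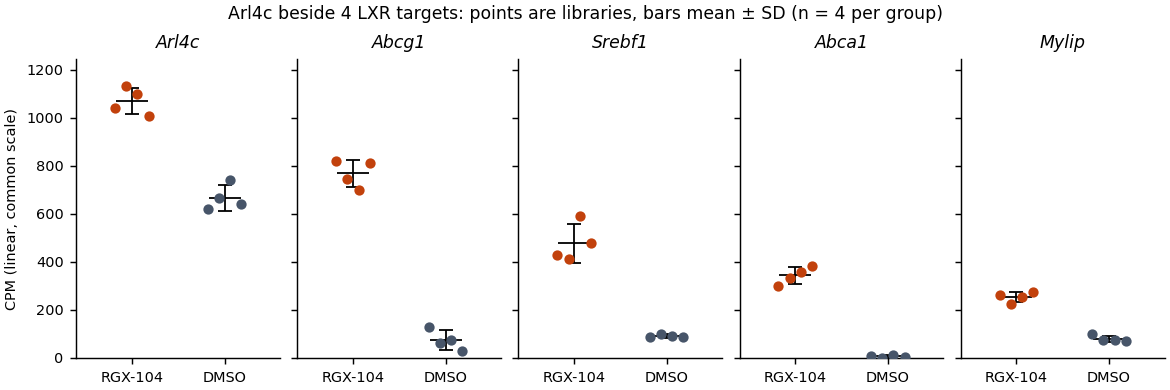
Level in CPM (vertical axis, linear, common scale from 0) of Arl4c and 4 LXR targets in RGX-104 and DMSO libraries; points are libraries and bars show mean ± SD (n = 4 per group). Arl4c starts from 667 CPM in DMSO, where the 4 targets lie between 6.63 and 91.3 CPM, and differs between the groups by 403 CPM.

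The wider ARF pathway was covered by 6 lists with 98 symbols, counting Grasp also under its other name Tamalin. Of these symbols 70 could be tested. None of the 70 was called by edgeR, DESeq2 or limma-voom, which called 11, 31 and 14 of all 10037 genes tested. At such shares a count of 0 among 70 genes says nothing about the pathway. An unadjusted edgeR p under 0.05 was found for 4, or 5.71% of those tested beside 3.81% of all 10037 genes tested. Among the 70 genes 39 lay above 0 on the log2 scale and 31 lay below it, and their median was 0.019 beside 0.0090 for all genes tested. The groups did not overlap for 2 of the 70, beside 3.58% of all genes tested.

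Among 20 tested ARF and ARL GTPases other than the members, 9 lay above 0 and 11 below, with a median log2 fold change of -0.055, which turned to 0.083 without DMSO replicate 1 and 0.0077 without DMSO replicate 2. Arf1, the GTPase of the Golgi and the most abundant of the list, stood at 407 ± 40.6 CPM in RGX-104 and 309.8 ± 62.0 CPM in DMSO (log2 fold change 0.39 ± 0.16 (SE), edgeR unadjusted p = 0.0207, adjusted p = 1.00). Arf5, next in abundance, stood at 149.9 ± 12.1 and 125 ± 47.1 CPM. Arfrp1, a GTPase of the trans-Golgi, stood at 70.8 ± 22.5 CPM in RGX-104 and 111 ± 20.5 CPM in DMSO (-0.65 ± 0.25, unadjusted p = 0.0177). The point farthest to the right in the plot of the lists is Trim23, named after its values were seen, with 9.51, 10.2, 0 and 16.4 CPM in RGX-104 and 0, 0, 0 and 4.71 CPM in DMSO, a level of a few apparent molecules (2.94 ± 2.30, unadjusted p = 0.218).

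Of the other ARF exchange factors 6 of 12 were tested, 4 above 0 and 2 below, with a median of 0.19. The median turned to -0.021 without DMSO replicate 2, -0.0087 without RGX-104 replicate 5, -0.028 with the covariate and -0.047 against DMSO replicate 4 alone. Gbf1, which loads Arf1 at the Golgi, stood at 59.7 ± 13.2 CPM in RGX-104 and 39.1 ± 21.6 CPM in DMSO. Iqsec1, an exchange factor for Arf6, stood at 20.9 ± 5.48 and 38.0 ± 26.0 CPM. Psd4, an exchange factor for Arf6 of the EFA6 family, was the most abundant of the list at 119 ± 23.0 and 103.5 ± 13.8 CPM, with Arfgef1 next at 67.9 ± 24.6 and 75.5 ± 19.5 CPM. The groups overlapped for each of these 4 genes.

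Of the ARF GTPase-activating proteins, which end the signal, 17 of 23 were tested, 9 above 0 and 8 below, with a median of 0.011 that ranged from -0.045 (without RGX-104 replicate 6) to 0.073 (without RGX-104 replicate 7) when single libraries were left out. Smap2 stood at 311 ± 24.9 CPM in RGX-104 and 333 ± 46.1 CPM in DMSO, and Agfg1 at 161 ± 29.2 and 195 ± 27.6 CPM. Git1, a scaffold that acts on Arf6, stood at 32.2 ± 7.82 and 16.4 ± 12.0 CPM, with overlap between the groups.

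Of the scaffolds and integrin partners of cytohesins 14 symbols were listed, with Grasp also under its other name Tamalin, and 13 had a row. Of these 10 were tested, 5 above 0 and 5 below. Their median was -0.034, or 0.037 with the covariate and 0.034 with limma-voom. Cytip, a scaffold that binds cytohesin 1 and draws it from the membrane, stood at 141, 186, 202 and 187 CPM in RGX-104 replicates 5 to 8, against 228, 256, 214 and 204 CPM in DMSO replicates 1 to 4. All RGX-104 libraries lay below all DMSO libraries, by a margin of 202 against 204 CPM, and the test did not pass (log2 fold change -0.33 ± 0.16 (SE), edgeR unadjusted p = 0.0568, adjusted p = 1.00). Grasp, the related scaffold also named tamalin, stood at 7.03 ± 5.05 CPM in RGX-104 and 19.6 ± 10.01 CPM in DMSO. Tln1 and Fermt3 (talin and kindlin 3, which activate integrins) stood at 572 ± 55.6 and 225 ± 39.4 CPM in RGX-104 and at 617 ± 47.3 and 239 ± 5.06 CPM in DMSO. The β2 integrin chain Itgb2, named after its values were seen, was detected at 169 to 257 CPM in RGX-104 and 213 to 222 CPM in DMSO.

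Of the partners of Arl4 proteins 8 of 10 were tested, 5 above 0 and 3 below, with a median of 0.035. It turned to -0.12 without RGX-104 replicate 6, -0.11 without DMSO replicate 4 and -0.032 without DMSO replicate 3. Flna, the actin crosslinker filamin A, stood at 507 ± 29.5 CPM in RGX-104 and 439 ± 40.4 CPM in DMSO (log2 fold change 0.21 ± 0.12 (SE), edgeR adjusted p = 1.00). Cdc42, a GTPase of actin remodelling, stood at 414 ± 67.4 and 446 ± 85.5 CPM. Elmo2 was lower in abundance at 19.8 ± 11.2 and 30.4 ± 20.9 CPM. Gcc2 and Robo1, named after their values were seen, had no count in any library.

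Of Arf6 effectors and recycling genes 9 of 13 were tested, 7 above 0 and 2 below, with a median of 0.27, which was 0.033 with the genes detected as a covariate, -0.057 against DMSO replicate 4 alone and 0.0066 without RGX-104 replicate 8. Pip5k1a, the kinase that makes the lipid PI(4,5)P2 under Arf6, stood at 213, 233, 158 and 190.0 CPM in RGX-104 replicates 5 to 8, against 314, 245, 258 and 281 CPM in DMSO replicates 1 to 4, without overlap (-0.47 ± 0.16 (SE), edgeR unadjusted p = 0.00933, adjusted p = 1.00). Spag9, a scaffold that binds Arf6, stood at 76.7 ± 8.03 CPM in RGX-104 and 106 ± 20.1 CPM in DMSO (-0.47 ± 0.22, unadjusted p = 0.0495). Rac1, the actin-regulating GTPase, stood at 229.6 ± 48.0 and 228 ± 29.7 CPM.

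**Figure D4:**
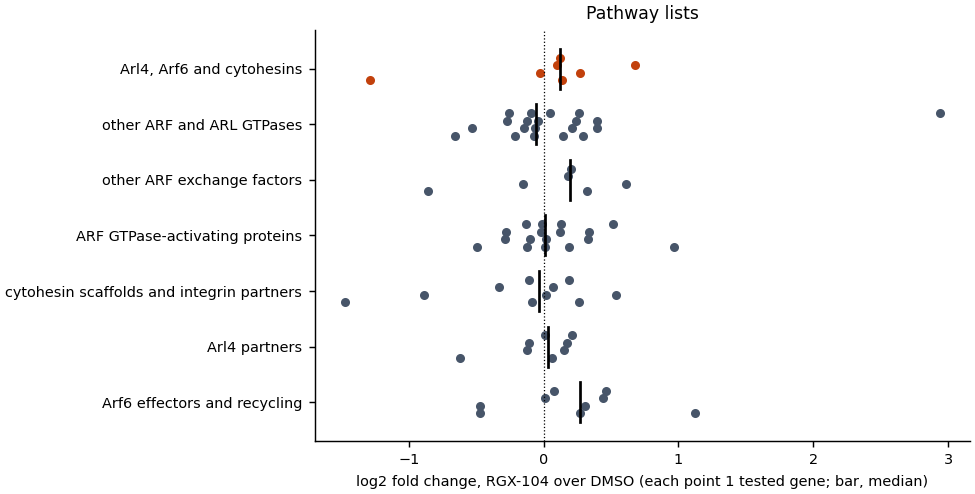
log2 fold change of RGX-104 over DMSO (horizontal axis) for every tested gene of the members and of 6 ARF pathway lists (rows); each point is a gene, its height within a row has no meaning, and black bars are list medians. The list medians lie between -0.055 and 0.27, and the point at 2.94 is Trim23, a gene of very low level.

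The genes whose pattern over the 8 libraries was most like that of Arl4c were found among 3545 other genes with a mean of at least 50 CPM, by the root mean square (RMS) difference between log2(CPM + 1) values centred on each gene's mean. The closest was Ly6e, a lipid-anchored protein of the lymphocyte surface, with an RMS difference of 0.0999. It was followed by Mapkapk2, a kinase downstream of p38 (0.119), Myo9b, an unconventional myosin (0.146), S1pr4, a receptor for sphingosine 1-phosphate on lymphocytes (0.155), and Bpnt2, a nucleotide phosphatase of the Golgi (0.158). The median over all genes compared was 0.457, and a gene at the same level in all libraries would be at 0.351, the RMS of the centred profile of Arl4c itself. In all 5 genes every RGX-104 library lay above every DMSO library, a profile for which they were chosen. That held for 2.08% of all 10037 genes tested. Ly6e was called by edgeR (adjusted p = 0.00987) and Mapkapk2, Myo9b, S1pr4 and Bpnt2 were not, beside 0.11% of all genes tested. Ly6e also matched Arl4c in level, at 1003 ± 86.4 CPM in RGX-104 and 645 ± 29.2 CPM in DMSO. S1pr4 stood at 290.1 ± 14.8 CPM in RGX-104 and 214 ± 21.6 CPM in DMSO. Among the members Cyth4, at rank 248 with 0.296, was the only one ranked that lay closer to Arl4c than such a flat gene. Arf6, at rank 813 with 0.371, lay farther from it. Cyth1, Cyth2 and Cyth3 followed at ranks 1808, 1843 and 3120, and Arl4a was too low to be ranked.

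**Figure D5:**
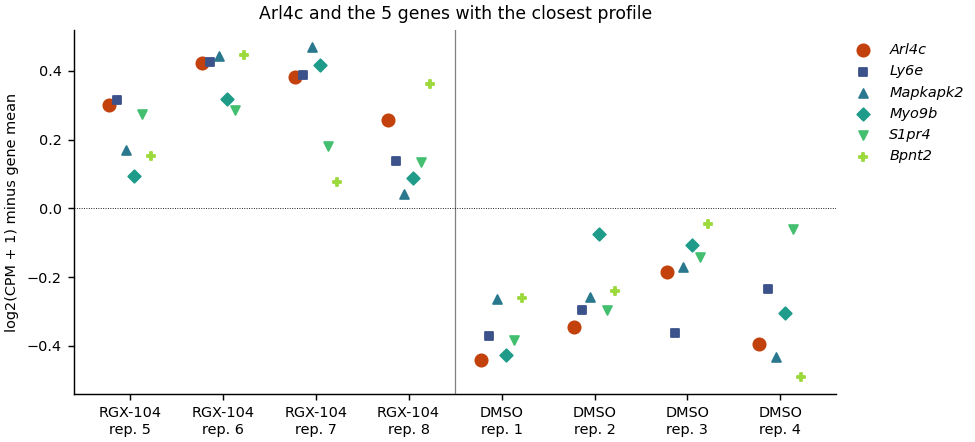
log2(CPM + 1) minus the mean of each gene over the 8 libraries (vertical axis) for Arl4c and the 5 genes with the closest profile, in RGX-104 replicates 5 to 8 and DMSO replicates 1 to 4 (horizontal axis). Every gene lies above its mean in all RGX-104 libraries and below it in all DMSO libraries, and Ly6e follows Arl4c with an RMS difference of 0.0999.

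Neighbouring genes could add reads to a member where strand was not used in counting, which is not given in the sources used here. Usp42, on the opposite strand, ends 74 bases past the 3' end of Cyth3, tail to tail, and stood at 8.57 to 32.6 CPM in RGX-104 and 33.5 to 37.1 CPM in DMSO. The noncoding gene Arl4aos lies 89 bases from Arl4a and had 0 or 1 count in every library, as did the noncoding gene Gm52186 within Cyth4.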

How the data were processed

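Messenger RNA of naive mouse CD8+ T cells was measured by QuantSeq 3' end sequencing, per the labels' protocols, in 4 RGX-104 and 4 DMSO libraries. The deposited table holds unnormalised whole-number counts for each gene symbol, per the file headers and the values. The submitters' processing notes name STAR 2.7.8a, R 4.1.0, DESeq2 1.4 and GRCm38. The sources used here give no counting tool, annotation or strand setting, and do not say whether molecular identifiers were used.

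The 8 genes and all gene lists were chosen with earlier results of these data known. The main test was edgeR 4.0.16 (R 4.3.3, quasi-likelihood, TMM, group as the only term) on 10037 genes kept by filterByExpr at a minimum count of 10, two-sided, with Benjamini-Hochberg adjustment over all of them and a threshold of 0.05. The standard error (SE) was taken as the size of the log2 fold change over the root of F, and 95% intervals rest on it. The script was tested on simulated data. Levels are CPM on TMM-scaled totals, without length correction.

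Apparent molecules per library are the number that gives, under Poisson sampling, the observed zeros among genes of 2 to 20 CPM in the other 7 libraries, an estimate that follows the earlier treatment of these data. The exact binomial intervals and the floors cover counting error only. Those taken from reads are too narrow for molecules, since amplified reads are not independent molecules. Genes named beside the members are Abca1, Abcg1, Srebf1 and Mylip, every called gene, the 2 highest and the 2 of smallest p in each list, and the 5 genes closest to Arl4c; any other is marked as named after its values. Alternatives were DESeq2 size factors, no filter, DESeq2 1.42.0, limma-voom (limma 3.58.1), a robust dispersion, detected genes as a covariate, each library left out, and DMSO replicate 4 alone. Gene positions and promoter sequences are from RefSeq on GRCm38.p6, and coding exons from GENCODE M21 on the same build. Promoters were found for 7 of the 8 members.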

Additional observations from a re-analysis of the deposited data

Results flagged for a closer look

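Of 80 groups of 4 libraries examined, covering the members and the genes named beside them, 2 had 1 library set apart by a wide gap. Chance alone would set apart about 1 group in 20, or 4 here. Neither concerned a member. Arfrp1 stood at 104.1 CPM in RGX-104 replicate 6, against 55.3 to 63.3 CPM in the other RGX-104 libraries. Psd4 stood at 85.1 CPM in RGX-104 replicate 5, against 127 to 135 CPM in the other RGX-104 libraries.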

How the results depend on the processing

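Arl4c, chosen by its adjusted p in these same libraries, kept its direction in all 15 other fits, which is no independent support. Its adjusted p rose above 0.05 with the genes detected as a covariate (log2 fold change 0.70) and against DMSO replicate 4 alone (0.75), where the median of all tested genes also moved to 0.13; the cause was not tested. Cyth1 turned to 0.27 against DMSO replicate 4 alone, and leaving out single libraries gave -0.17 to 0.079 for Cyth1 and -0.17 to 0.42 for Cyth3. No other tested member turned. Beside Arl4c no member was called in any fit that gave it an adjusted p. DESeq2 gave none for Arl4a, and Arl4d was tested in no fit. Genes called across the table numbered 31 with DESeq2 and 7 with the covariate, against 11. Against DMSO replicate 4 alone list medians moved to 0.16 (ARF and ARL GTPases), 0.35 (GTPase-activating proteins), 0.21 (Arl4 partners), -0.057 (Arf6 effectors) and 3.57 (the 4 LXR targets), and with the covariate to 0.065 (ARF and ARL GTPases), 0.033 (Arf6 effectors) and 3.22 (LXR targets). Leaving out single libraries gave medians of -0.081 to 0.083 for ARF and ARL GTPases and 0.0066 to 0.32 for Arf6 effectors. Arl4a over Arl4d, no test, was 3.97 and 2.02 at a pseudocount of 5, a value set by the pseudocount. In the order of levels leaving out libraries gave -0.0029 to 0.13 for Cyth4 over Arf6, -0.094 to 0.099 for Arf6 over Cyth1 and -0.20 to 0.21 for Cyth3 over Cyth2, and the other 3 differences tested stayed past the threshold. Of the 5 genes closest to Arl4c 4 were shared at a minimum of 10 CPM. Depth limits Arl4a, at few apparent molecules. No paired analysis was possible because library numbers are unique across the groups.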
